A study of Mus musculus with 46 samples.

Results

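The loss of cGas was examined in mouse hearts from which floxed Lmna had been targeted for deletion. The 10 libraries concerned, of 46 in the series, are those labelled 2 weeks after tamoxifen, QuantSeq and Lmna F/F: 4 cGas null/null hearts (2 male, 2 female) and 6 cGas +/+ hearts (3 male, 3 female). The product of Lmna, lamin A/C, lines the inside of the nuclear envelope. All 10 hearts carried Myh6MCM Tg/0, a Cre recombinase that the Myh6 promoter drives in cardiomyocytes and that tamoxifen activates, so other cells of the heart keep floxed Lmna intact while the cGas null allele is labelled as the genotype of the whole animal. Tamoxifen was injected into the peritoneum at 6 to 8 weeks of age, as 100 µL of a 4 mg/mL solution daily for 4 days, and the controls received it too. A set of 10 further QuantSeq libraries of the same age and sequencing pool, from Lmna F/+ hearts that also carried Myh6MCM Tg/0, holds 4 cGas null/null hearts (4 male) and 6 cGas +/+ hearts (2 male, 4 female) and is used for comparison. No heart without Cre or without tamoxifen is among these 20. Each sample title ends in a number that does not recur among these 20. The labels nonetheless give neither the part of Cgas that the null allele lacks nor whether every library is from a mouse of its own. The p-values therefore describe the spread from library to library, which may be partly technical.

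cGAS is an enzyme that binds DNA in the cytosol, from damaged nuclei, mitochondria or microbes, and makes the second messenger cGAMP. cGAMP binds STING (gene Sting1), which recruits the kinase TBK1. TBK1 activates the transcription factor IRF3 and, with it, type I interferons and a broad set of interferon-stimulated genes, many of which can also be reached through the interferon receptor. In the heart, macrophages and endothelial cells are known for strong signalling of this kind, and cardiomyocytes for weaker signalling. The comparison therefore asks whether the transcripts of Lmna-deleted hearts differ when this sensor is missing.

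Interferon-stimulated genes can carry a sequence that interferon-activated transcription factors bind, the interferon-stimulated response element. Its core, written here as GAAA, 2 bases of any kind and GAAA, was searched on both strands in the 250 bases before the start of each gene, with overlapping matches counted, in RefSeq promoters of GRCm38.p6. Of 37 tested interferon-stimulated genes 27 had a promoter in the table, and 11 of these (40.7%) held the core. Of 26 cytokine and chemokine genes 20 had a promoter and 3 (15%) held it, against 348 of 10649 tested genes with a promoter (3.27%). The windows of Ifit1, Isg15 and Cxcl10, whose values are given further on, are shown 5′ to 3′ along the strand of the gene, with every matched core in capitals:
Ifit1 (chr19:34640639-34640888, plus strand): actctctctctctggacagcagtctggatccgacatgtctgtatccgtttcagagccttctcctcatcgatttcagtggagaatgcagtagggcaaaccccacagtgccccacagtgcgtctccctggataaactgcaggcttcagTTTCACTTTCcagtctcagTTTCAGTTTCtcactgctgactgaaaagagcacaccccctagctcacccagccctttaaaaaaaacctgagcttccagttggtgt
Isg15 (chr4:156200819-156201068, minus strand): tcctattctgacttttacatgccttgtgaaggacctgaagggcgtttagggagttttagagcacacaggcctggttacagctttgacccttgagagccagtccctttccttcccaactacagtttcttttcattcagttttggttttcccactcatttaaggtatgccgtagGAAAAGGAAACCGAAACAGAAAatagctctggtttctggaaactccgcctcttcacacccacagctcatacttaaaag
Cxcl10 (chr5:92348890-92349139, minus strand): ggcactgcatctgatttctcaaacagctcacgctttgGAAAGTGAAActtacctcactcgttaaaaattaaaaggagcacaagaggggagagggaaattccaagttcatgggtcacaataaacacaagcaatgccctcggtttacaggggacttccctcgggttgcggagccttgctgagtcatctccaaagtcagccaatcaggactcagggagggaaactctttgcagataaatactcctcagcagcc
Ifit1 has 2 matches on the opposite strand, Isg15 has 3 that overlap each other, and Cxcl10 has 1. A match is a string of letters in this window and was not tested as a binding site.

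The targeted genes come before any other gene, as a check on the labels. Cgas had 1.20, 0.609, 0.741 and 0.954 normalised CPM in the 4 cGas null hearts, against 1.97 to 3.79 CPM with a median of 2.87 in the 6 cGas +/+ hearts. Normalised CPM are counts scaled to the library total and then by TMM, which removes differences in library composition. The groups did not overlap, and no null library reached 0: between 17 and 37 reads per null library were counted on Cgas, against 52 to 115 per +/+ library. The log2 fold change, null over +/+, was -1.71 ± 0.33 (SE; 95% interval -2.39 to -1.03). An exact two-sided permutation test of the means gave p = 0.00952 (4 against 6 libraries, 210 splits, 0.00476 being the smallest p they can give). In the edgeR quasi-likelihood test across 14812 genes the adjusted p was 0.260, so Cgas itself was not called. In F/+ hearts Cgas averaged 0.564 CPM in null and 1.45 CPM in +/+ libraries (log2 fold change -1.54 ± 0.40, exact permutation p = 0.0286).

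Lmna did not separate the groups. It had 25.7, 16.4, 18.0 and 28.5 CPM in null hearts, against 16.6 to 28.6 CPM with a median of 19.3 in +/+ hearts (log2 fold change 0.10 ± 0.17, 95% interval -0.25 to 0.45, exact permutation p = 0.629). Both groups carry Lmna F/F, and a tag from the 3′ end would still be counted from a transcript that lacks other exons, so this level is no check on the deletion.

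**Figure D1:**
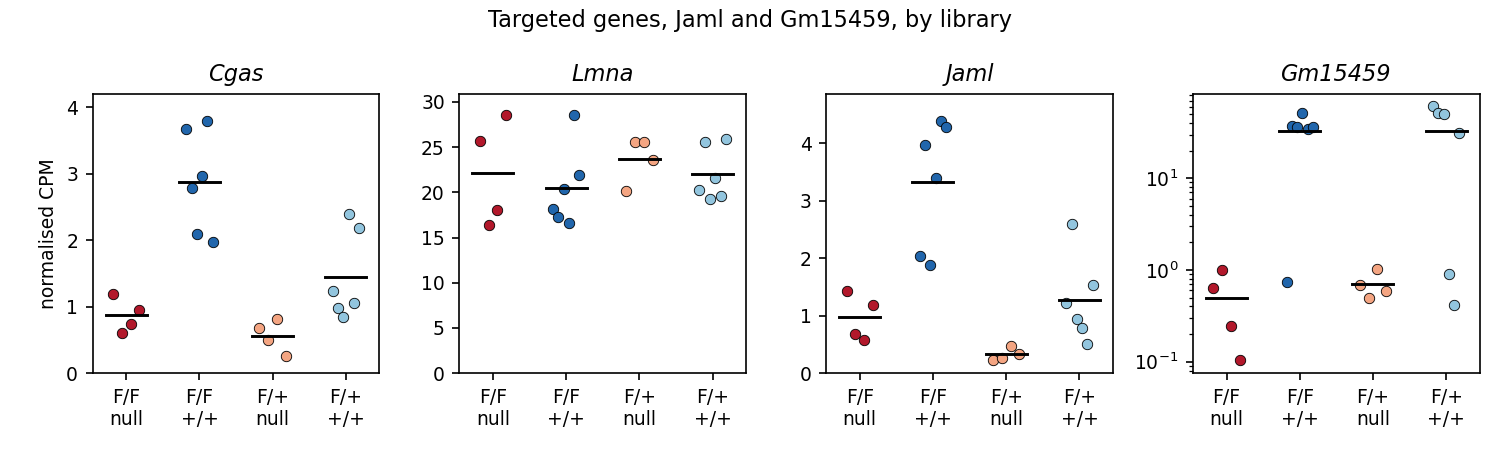
Normalised CPM (y axis; logarithmic for Gm15459, linear for the others) of Cgas, Lmna, Jaml and Gm15459 in each library, grouped by Lmna genotype (F/F, F/+) and cGas genotype (null, +/+). Points are libraries and lines are means; Cgas and Jaml lie lower in all 4 null libraries than in all 6 +/+ libraries of F/F hearts, Lmna overlaps, and Gm15459 is near 0 in all 8 null libraries and in 3 of 12 +/+ libraries.

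Across all genes the loss of cGas gave no call. The edgeR test called 0 of 14812 genes at an adjusted p under 0.05 (0%), and limma-voom also called 0 (0%). At an unadjusted p under 0.05 there were 850 genes (5.74%), 429 higher (2.9%) and 421 lower (2.84%) in null hearts; without +/+ replicate 1 there were 526, and with no scaling factor 487. DESeq2 called 5 genes (0.0338%): Gm15459, Cgas, Jaml and Mal with lower values in null hearts and Dixdc1 with higher ones. A difference of a doubling or a halving could be bounded for most genes: the 95% interval of the log2 fold change lay within ±1 for 11661 genes (78.7%), and the median SE was 0.22. All 4 null hearts lay below all 6 +/+ hearts at 61 genes (0.412%) and above them at 97 (0.655%).

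The number of calls depended on the treatment of genes with few reads. When all 29893 genes with a read were fitted, edgeR called 93 (0.311%), 15 higher and 78 lower in null hearts, and 91 of these had also been tested with the filter on low counts. The 78 lower genes, of 29893 fitted, held 9 of 37 interferon-stimulated genes, 12 of 26 cytokines and chemokines and 5 of 30 macrophage markers. Of all genes fitted, 0.311% were called in either direction. These lists were chosen with earlier results of these data known. Standard errors could be much smaller there: Ifit1 had a log2 fold change of -1.23 ± 0.19 without the filter, against -1.25 ± 0.40 with it. Igkc had -1.32 ± 0.22 against -1.34 ± 0.73. The pseudogene Ldhb-ps, whose difference rests on few +/+ libraries, had -1.96 ± 0.22 against -1.96 ± 0.63. At Dixdc1 the standard error was 0.24 without the filter and 0.22 with it. These calls can thus understate the spread between libraries. The unfiltered fit also called 93 genes in F/+ hearts. The values below come from the filtered fit, in which no gene passed, and they are given as values and not as changes.

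Genes of cytosolic DNA sensing form a list wider than the steps from cGAS to IRF3. They had lower mean values in null hearts at 15 of 18 tested, with a median log2 fold change of -0.29. Over all genes tested 7358 of 14812 (49.7%) were lower and the median was 0.00. Of the 18, 4 were lower at an unadjusted p under 0.05 (22.2%, against 2.84% of all genes). Sting1, the receptor of cGAMP, had 5.27, 3.19, 2.63 and 5.21 CPM in null hearts, against 3.83 to 7.65 CPM with a median of 4.91 in +/+ hearts. Its log2 fold change was -0.46 ± 0.19 (edgeR adjusted p = 0.864). The kinase gene Tbk1 had a log2 fold change of -0.20 and Irf3 of -0.03, and Trim56, a ubiquitin ligase reported to act on cGAS, had 0.30 ± 0.18. Of the other members Zbp1, which binds left-handed nucleic acid helices, had a log2 fold change of -1.27. Irf7, a transcription factor of the interferon response, had -0.87. Ifi204, a DNA-binding protein of the HIN-200 family, had 18.5, 6.59, 6.46 and 11.4 CPM in null hearts, against 11.6 to 39.4 CPM with a median of 15.3 in +/+ hearts (log2 fold change -0.91 ± 0.29, edgeR adjusted p = 0.849). Ifi204 overlapped between groups through null replicate 1. Of its relatives, Ifi203 had 37.2, 16.0, 16.6 and 20.02 CPM in null hearts, against 18.8 to 47.2 CPM with a median of 27.5 in +/+ hearts (log2 fold change -0.38 ± 0.28), and Ifi205 had a log2 fold change of -1.03 ± 0.55. In the HIN-200 family, near-identical copies can have shared reads when the authors counted them.

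Interferon-stimulated genes were lower in null hearts at 37 of 37 tested, with a median log2 fold change of -0.53 and a range from -1.25 (Ifit1) to -0.03 (Parp14). Of these, 17 had an unadjusted p under 0.05 (45.9%, against 2.84% of all genes) and 0 were called (0%). Members of such a list vary together from heart to heart, so the count of lower members does not amount to 37 separate observations. Isg20, an RNA exonuclease, was the member whose groups did not overlap. It had 4.83, 4.12, 6.54 and 4.23 CPM in null hearts, against 7.77 to 12.3 CPM with a median of 9.55 in +/+ hearts (log2 fold change -0.94 ± 0.24, edgeR adjusted p = 0.849). Ifit1, a protein that binds viral RNA and whose window is shown above, had 9.46, 5.87, 11.5 and 9.24 CPM in null hearts, against 9.63 to 36.1 CPM with a median of 20.2 in +/+ hearts. Its log2 fold change was -1.25 ± 0.40 (95% interval -2.06 to -0.43, edgeR adjusted p = 0.849). Isg15, a ubiquitin-like modifier, had 9.50, 9.88, 14.5 and 10.5 CPM in null hearts, against 11.7 to 33.3 CPM with a median of 23 in +/+ hearts (log2 fold change -0.97 ± 0.34). Ifi27l2a, the member of highest level, had 108, 137, 95.4 and 151 CPM in null hearts, against 91.3 to 360 CPM with a median of 225 (log2 fold change -0.82 ± 0.36). The next 3 in level had smaller differences and overlapped as well: Trim30a had -0.53 ± 0.23, Lgals3bp had -0.40 ± 0.26 and Ifi27 had -0.36 ± 0.26. Of other members, Usp18 had a log2 fold change of -0.98, Mx1 of -0.95, Ifit3b of -0.95 and Bst2 of -0.25. Ifit3 and Ifit3b are near-identical and can have shared reads.

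The spread of these genes was unequal between the groups. The mean of log2(normalised CPM + 1) over the 37 genes, a list level, was 2.76, 2.68, 2.77 and 2.82 in null hearts, against 2.63 to 3.59 with a median of 3.29 in +/+ hearts. The 4 null hearts thus lay within a narrow band, while the +/+ hearts ranged from below that band (replicate 4) to well above it (replicates 1 and 5). Without +/+ replicate 1 the median log2 fold change of the list was -0.39. Among F/+ hearts the list level was 2.08 to 2.81 in null and 2.40 to 2.99 in +/+ libraries, and the list's median log2 fold change was -0.40, with 37 of 37 members lower (47.6% of all genes) and 2 of them at an unadjusted p under 0.05 (2.07% of all genes).

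**Figure D2:**
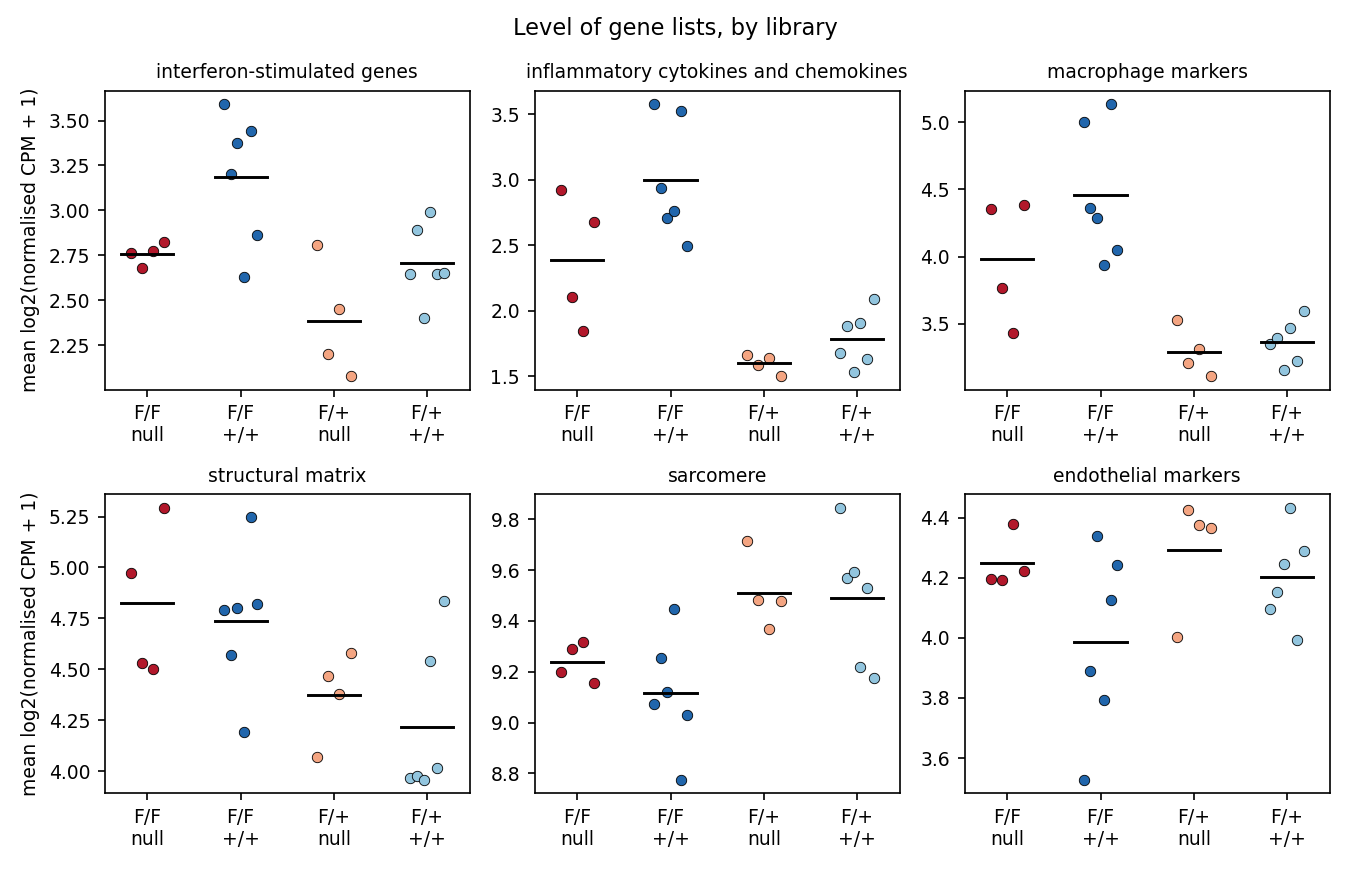
Level of 6 gene lists, as the mean of log2(normalised CPM + 1) over the tested members (y axis), in each library, grouped by Lmna and cGas genotype. Points are libraries and lines are means; for interferon-stimulated genes the 4 null F/F libraries sit between 2.68 and 2.82 while the 6 +/+ F/F libraries spread from 2.63 to 3.59.

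The GTPases that interferon induces, which attack the vacuoles of intracellular pathogens, were lower at 15 of 15 tested, against 49.7% of all genes (median log2 fold change -0.35). Of these GTPases 2 had an unadjusted p under 0.05 (13.3%, against 2.84% of all genes). Their leading member Ifi47 had 4.15, 5.19, 6.58 and 5.62 CPM in null hearts, against 4.84 to 14.6 CPM with a median of 10.3 in +/+ hearts (log2 fold change -0.88 ± 0.31). Gbp2, a guanylate-binding protein, had -0.50. Genes of MHC class I presentation and of the immunoproteasome, which supplies its peptides, were lower at 12 of 15 (median -0.33, but -0.14 without +/+ replicate 5). Psmb8, an immunoproteasome subunit, averaged 17.2 ± 3.03 CPM in null and 23.3 ± 7.04 CPM in +/+ hearts (SD, n = 4 and 6; log2 fold change -0.43 ± 0.20, edgeR adjusted p = 0.866). MHC class II genes had a median of -0.24 (-0.05 without that library) over 7 genes, 7 of them lower and 0 at an unadjusted p under 0.05.

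Inflammatory cytokines and chemokines were lower in null hearts at 24 of 26 tested, with the most negative median, -0.81, of the lists on immune signalling. Of the 26, 12 had an unadjusted p under 0.05 (46.2%, against 2.84% of all genes) and 0 were called. Over all genes tested 49.7% were lower at any p. These members too can vary together, so they are not 26 separate observations. Ccl2, which attracts monocytes through the receptor Ccr2, had 23.9, 6.34, 3.62 and 16.5 CPM in null hearts, against 13.5 to 52.0 CPM with a median of 25.6 in +/+ hearts. Its log2 fold change was -1.27 ± 0.35 (95% interval -1.98 to -0.55, edgeR adjusted p = 0.849). Ccl7, which shares that receptor, had 26.9, 6.12, 3.54 and 18.4 CPM in null hearts, against 10.7 to 52.2 CPM with a median of 24.9 (log2 fold change -1.15 ± 0.34). For both, the male null hearts (replicates 1 and 4) were higher than the female null hearts (replicates 2 and 3). Fitted within a sex, Ccl2 had a log2 fold change of -0.82 ± 0.31 in male hearts and -2.0 ± 0.31 in female hearts (edgeR adjusted p = 0.842 and 0.196), and the difference between the sexes was not tested.

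Cxcl10, a chemokine for T cells whose gene is a textbook target of IRF3, had 1.76, 0.465, 0.329 and 2.35 CPM in null hearts, against 1.67 to 7.44 CPM with a median of 2.79 in +/+ hearts (log2 fold change -1.57 ± 0.48, edgeR adjusted p = 0.849). Spp1, which encodes osteopontin, had 6.39, 1.97, 0.494 and 6.04 CPM in null hearts, against 1.92 to 26.3 CPM with a median of 5.75 (log2 fold change -1.59 ± 0.47). The 3 other members with the largest differences and an unadjusted p under 0.05 were Ccl12 (-1.34), Ccl8 (-1.31) and Il1rn, the antagonist of the interleukin 1 receptor (-1.10). Of the members that were not lower, Cxcl12 had a log2 fold change of 0.33 and Csf1 of 0.00. In F/+ hearts the levels of these genes were much lower in both groups, at 1.59 CPM of Ccl2 in null and 2.18 CPM in +/+ hearts on average. The list level there averaged 1.60 in null and 1.79 in +/+ libraries, with no adjustment for sex. From the fit with sex as covariate, the list's median log2 fold change was -0.86, and 23 of 26 members were lower (47.6% of all genes). All 4 null F/+ hearts are male, so these fitted values lean on the sex term. The difference between the F/F and F/+ effects was not significant at any of the 26 genes (edgeR, 0 called, 1 at an unadjusted p under 0.05).

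**Figure D3:**
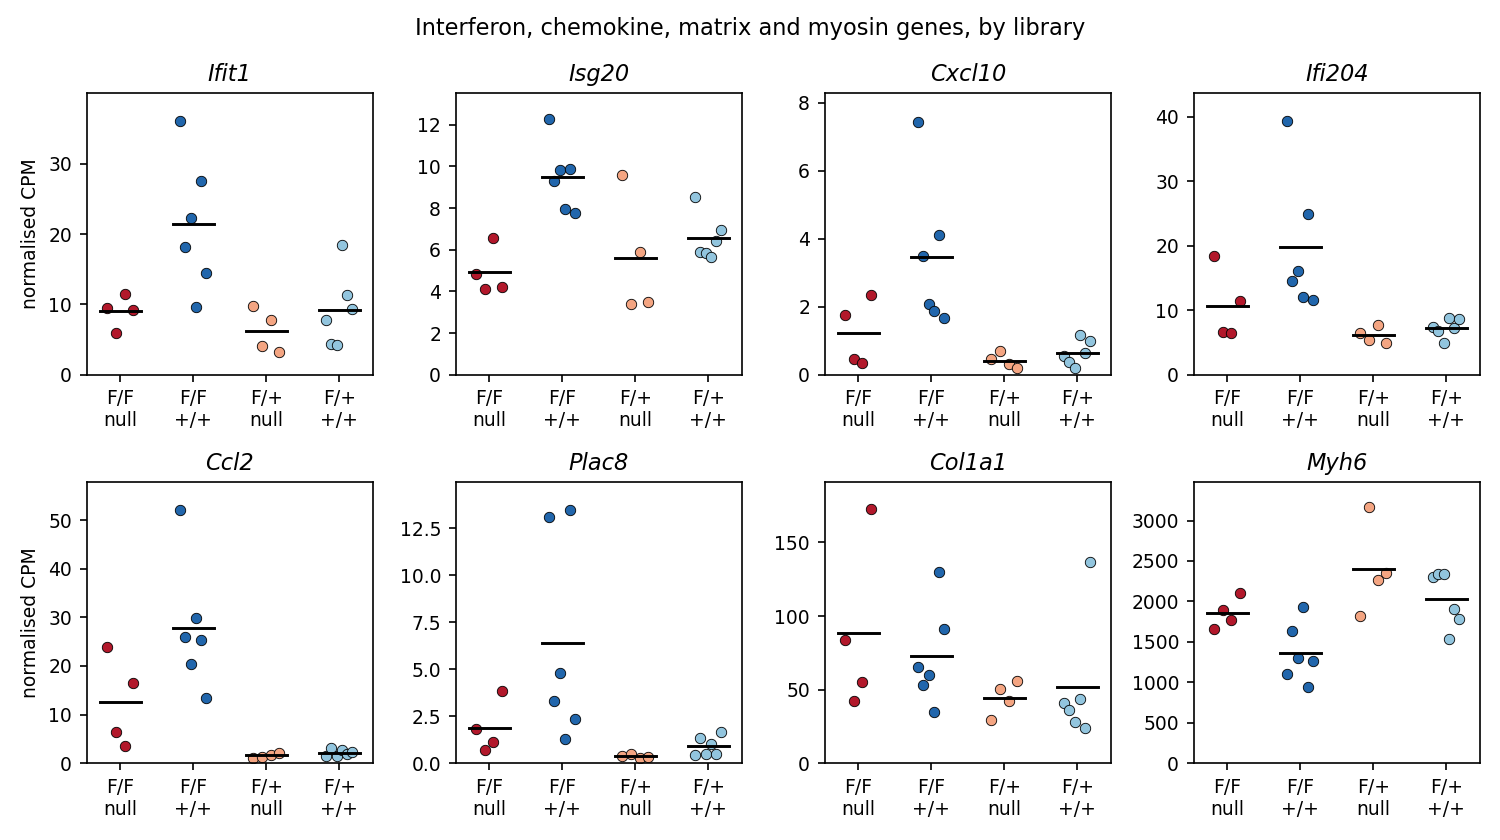
Normalised CPM (y axis, linear) of 8 genes in each library, grouped by Lmna and cGas genotype; points are libraries and lines are means. Isg20 separates the 4 null from the 6 +/+ F/F libraries, while Ifit1, Cxcl10, Ifi204, Ccl2, Plac8, Col1a1 and Myh6 overlap between them.

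Macrophage markers were lower beside these genes. In null hearts 29 of 30 were lower, against 49.7% of all genes, with a median log2 fold change of -0.56. Of the 30, 15 had an unadjusted p under 0.05 (50%, against 2.84% of all genes), with 0 called. The summed level of the 30 markers was 680 to 1378 CPM in null and 1032 to 2359 CPM in +/+ hearts. The list level was 4.35, 3.76, 3.43 and 4.38 in null hearts, against 3.94 to 5.13 with a median of 4.32 in +/+ hearts. The male null hearts (replicates 1 and 4) thus lay within the +/+ range, and the female null hearts (replicates 2 and 3) lay below it. A difference between the sexes was not tested. Plac8, which recruited monocytes express, had 1.80, 0.716, 1.11 and 3.84 CPM in null hearts, against 1.28 to 13.4 CPM with a median of 4.07 in +/+ hearts (log2 fold change -1.75 ± 0.52, edgeR adjusted p = 0.849), and the monocyte marker Ly6c2 had a log2 fold change of -1.45. Among markers of resident macrophages Timd4 had -0.76, Folr2 had -0.46, Lyve1 had -0.45 and Cd163 had -0.10. Lyz2, the lysozyme of myeloid cells, had -0.70, and Adgre1, which encodes F4/80, had -0.61. In this bulk RNA, fewer cells of a type and less RNA per cell cannot be told apart, and the part of macrophages in the lower interferon and chemokine values was not tested.

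Complement genes were lower at 15 of 15 tested, against 49.7% of all genes (median -0.45, but -0.18 without +/+ replicate 5). Of the 15, 4 had an unadjusted p under 0.05 (26.7%, against 2.84% of all genes), and 3 are the C1q chains that macrophages make. C1qa had 85.3, 54.6, 40.2 and 86.6 CPM in null hearts, against 63.6 to 133 CPM with a median of 89.5 in +/+ hearts (log2 fold change -0.49 ± 0.20, edgeR adjusted p = 0.861). T and NK cell markers could be tested for 6 of 20 genes (median -0.36, but 0.00303 without +/+ replicate 5), and of the defining genes Cd3e did not exceed 0.362 CPM and Trac was at 0 in all 10 libraries. B cell markers could be tested for 3 of 9 genes, with 2 lower, and Cd79a did not exceed 0.0823 CPM. Neutrophil markers were lower at 6 of 6 (median -0.38, but 0.07 without +/+ replicate 5). Red cell genes were lower at 9 of 9 (median -0.51, 0 at an unadjusted p under 0.05), in hearts that had been perfused.

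**Figure D4:**
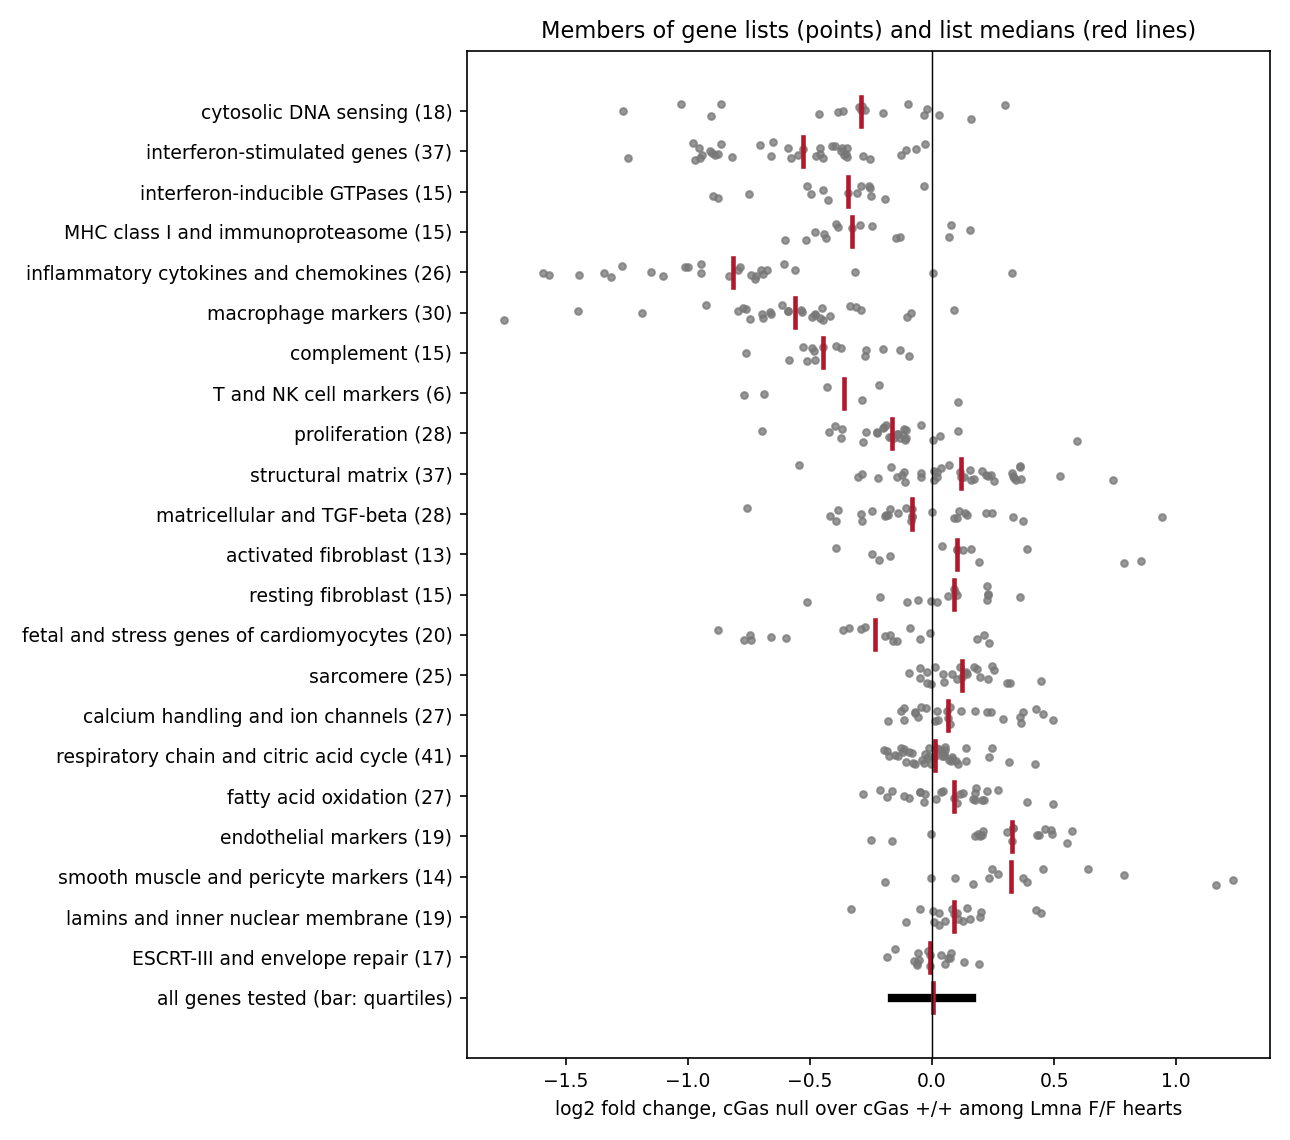
Log2 fold change, cGas null over cGas +/+ among Lmna F/F hearts (x axis), of each tested member (points) of 22 gene lists (rows, number of tested members in brackets); red lines are list medians and the black bar spans the quartiles of all genes tested. Medians are -0.81 for cytokines and chemokines, -0.56 for macrophage markers and -0.53 for interferon-stimulated genes, against 0.12 for the sarcomere and 0.33 for endothelial markers, and no point is a called gene.

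Vessel genes had higher values in null hearts. Endothelial markers were higher at 16 of 19 (median log2 fold change 0.33), 4 at an unadjusted p under 0.05 (Cdh5, Kdr, Pecam1 and Egfl7), against 2.9% of all genes, of which 50.3% were higher at any p. Cdh5, the cadherin of endothelial junctions, had 22.6, 17.6, 18.8 and 23.8 CPM in null hearts, against 8.73 to 19.2 CPM with a median of 14.4 in +/+ hearts (log2 fold change 0.55 ± 0.22, edgeR adjusted p = 0.849). Kdr, the main receptor of VEGF, had a log2 fold change of 0.57. Smooth muscle and pericyte markers were higher at 12 of 14 (median 0.32). Myh11, the myosin of smooth muscle, had 8.22, 10.3, 23 and 6.81 CPM in null hearts, against 2.80 to 8.22 CPM with a median of 4.74 in +/+ hearts (log2 fold change 1.23 ± 0.36, edgeR adjusted p = 0.849). Null replicate 3 was the highest library for Myh11 and for Tagln (30.8 CPM), and calponin (Cnn1) had a log2 fold change of 1.16. In F/+ hearts the 2 lists had medians of 0.26 and 0.20.

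Most sarcomere genes of cardiomyocytes differed little, while most fetal and stress genes had lower values in null hearts, with none called. Of 25 sarcomere genes 19 were higher in null hearts, with a median log2 fold change of 0.12 (0.06 without +/+ replicate 5). Myh6, the alpha myosin heavy chain and the gene whose promoter drives the Cre, had 1664, 1893, 1770 and 2109 CPM in null hearts, against 940.4 to 1926 CPM with a median of 1283 in +/+ hearts (log2 fold change 0.45 ± 0.20, edgeR adjusted p = 0.865). Ttn had 0.05 and Tnnt2 had 0.01. Fetal and stress genes were lower at 17 of 20 (median -0.23, and -0.41 without null replicate 4). Ankrd1, a titin-binding protein that strained muscle makes, had 3793, 1546, 1555 and 2838 CPM in null hearts, against 1852 to 8994 CPM with a median of 3481 in +/+ hearts (log2 fold change -0.88 ± 0.30, edgeR adjusted p = 0.849). Nppb, the B-type natriuretic peptide, had -0.74, while Nppa had -0.01 and Myh7 had 0.18. Nppa is an atrial gene too, and atrial tissue was unevenly present: Sln, an atrial marker, ranged from 0.599 to 535 CPM in null and from 0.325 to 342 CPM in +/+ hearts, above 10 CPM in 3 of 4 and 3 of 6.

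Matrix and fibroblast genes showed no common direction. Structural matrix genes were higher at 26 of 37 (median 0.12, but -0.05 without null replicate 4), matricellular and TGF-beta genes lower at 17 of 28 (median -0.08, but -0.22 without null replicate 4 and 0.01 without +/+ replicate 5), metalloproteinases and their inhibitors lower at 11 of 21, activated fibroblast markers higher at 9 of 13 and resting ones at 10 of 15. The members of smallest p in these lists, in that order, went both ways and none was called. Their log2 fold changes were 0.74 ± 0.35 (Col18a1), -0.42 ± 0.23 (Thbs4), -0.81 ± 0.33 (Mmp12), 0.78 ± 0.35 (Tagln) and 0.36 ± 0.27 (Mfap4). Col1a1, a chain of type I collagen, had 83.7, 42.6, 54.8 and 173 CPM in null hearts, against 34.7 to 130.1 CPM with a median of 62.9 in +/+ hearts (log2 fold change 0.25 ± 0.44, 95% interval -0.65 to 1.16). Without null replicate 4 its log2 fold change was -0.27, and in female hearts alone -0.50. Postn, a mark of activated fibroblasts, had -0.39 ± 0.45 (95% interval -1.32 to 0.54), and -0.04 without +/+ replicate 1. Timp1, an inhibitor of metalloproteinases, had 38.2, 20.8, 6.38 and 83.6 CPM in null hearts, against 24.4 to 134 CPM with a median of 34.6 (log2 fold change -0.82 ± 0.54, which was -1.37 without null replicate 4 and -0.48 without null replicate 3).

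The nuclear envelope lists, which hold the partners of lamin A/C, also stayed close to 0. Of 19 lamins and inner nuclear membrane genes 16 were higher in null hearts (median log2 fold change 0.09, but 0.02 without null replicate 4). Syne1 and Syne2, the giant nesprins that tie the nucleus to the cytoskeleton, had 0.43 and 0.45, and Lmnb1 had 0.14. ESCRT-III and repair genes had a median of -0.01 over 17 genes, and DNA damage response genes were higher at 11 of 19. Proliferation genes were lower at 24 of 28 (median -0.16, but 0.00337 without null replicate 3). Pcna, the sliding clamp of DNA replication, had 7.90, 10.3, 10.3 and 9.67 CPM in null hearts, below the 11.2 to 15.4 CPM of all 6 +/+ hearts (log2 fold change -0.42 ± 0.16, edgeR adjusted p = 0.849).

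Genes of energy metabolism had small differences. Genes of the respiratory chain and citric acid cycle were lower at 20 and higher at 21 of 41 (median 0.01), those of fatty acid oxidation higher at 17 of 27 (0.09, but 0.00817 without +/+ replicate 5) and those of glycolysis lower at 10 of 19. Calcium handling and channel genes were higher at 18 of 27 (median 0.06, but 0.000977 without that library). All mitochondrially encoded genes together took 46.3 to 56.3% of the counts in these 10 libraries. Of their mRNAs 11 of 13 were lower (median -0.26, but -0.05 without null replicate 4). Of the remaining lists, p53 targets were lower at 10 of 20, genes of the integrated stress response and serine synthesis at 10 of 24, immediate early genes at 14 of 26, NRF2 targets at 12 of 16, NF-kB targets at 12 of 18, autophagy and lysosome genes at 14 of 18, and genes of transposable element restriction at 7 of 12. Adipocyte markers were lower at 7 of 8, Schwann cell markers at 2 of 8, epicardial and atrial markers at 4 of 8 each. The adipocyte median of -0.99 was the most negative of the 41 lists, but was -0.0198 without +/+ replicate 5. None of the 41 lists held a called gene, by the edgeR test with the filter.

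Several genes of smallest p lay on the chromosome of Cgas. Of the 20 genes of smallest unadjusted p, 7 (35%) were on chromosome 9, which carries Cgas, against 798 of 14046 tested genes with a chromosome (5.68%), and of the 100 smallest 12 were. Besides Cgas these were Jaml, Dixdc1, Mpzl3, Lman1l, Gm32171 and Calml4, of which the last 4 were chosen after their values were seen. Over the whole chromosome 59 genes (7.39%) had an unadjusted p under 0.05, 25 lower and 34 higher, against 5.74% of all genes. Jaml, an adhesion molecule of leukocytes, had 1.44, 0.680, 0.576 and 1.19 CPM in null hearts, against 1.88 to 4.38 CPM with a median of 3.68 in +/+ hearts (log2 fold change -1.79 ± 0.38, edgeR adjusted p = 0.405). In F/+ hearts, whose libraries are separate, Jaml had -2.04 ± 0.49 and again did not overlap. Its neighbour Mpzl3 had -1.27 ± 0.33 in F/F and -0.77 ± 0.35 in F/+ hearts.

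Gm32171 was at 0 in all 4 null hearts and in +/+ replicates 1 and 6, and at 1.00 to 1.37 CPM in the other +/+ hearts. With the counts of each group pooled, and against a floor of 3 counts over the null group (0.0259 CPM), it was at least 32.4-fold lower. That bound leaves out the spread between libraries. In the fit Gm32171 had a log2 fold change of -7.43 ± 1.98 (95% interval -11.6 to -3.29, edgeR adjusted p = 0.849). Dixdc1, a protein of Wnt signalling, had 2.24, 3.76, 4.16 and 2.35 CPM in null hearts, against 1.19 to 1.99 CPM with a median of 1.48 in +/+ hearts (log2 fold change 1.01 ± 0.22, edgeR adjusted p = 0.405). In F/+ hearts Dixdc1 averaged 3.26 CPM in null and 3.35 CPM in +/+ libraries (log2 fold change 0.06 ± 0.24), and the difference between the effects was 0.95 ± 0.32 (edgeR adjusted p = 1.00). The null allele and the stretch of chromosome inherited with it cannot be told apart in this design.

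**Figure D5:**
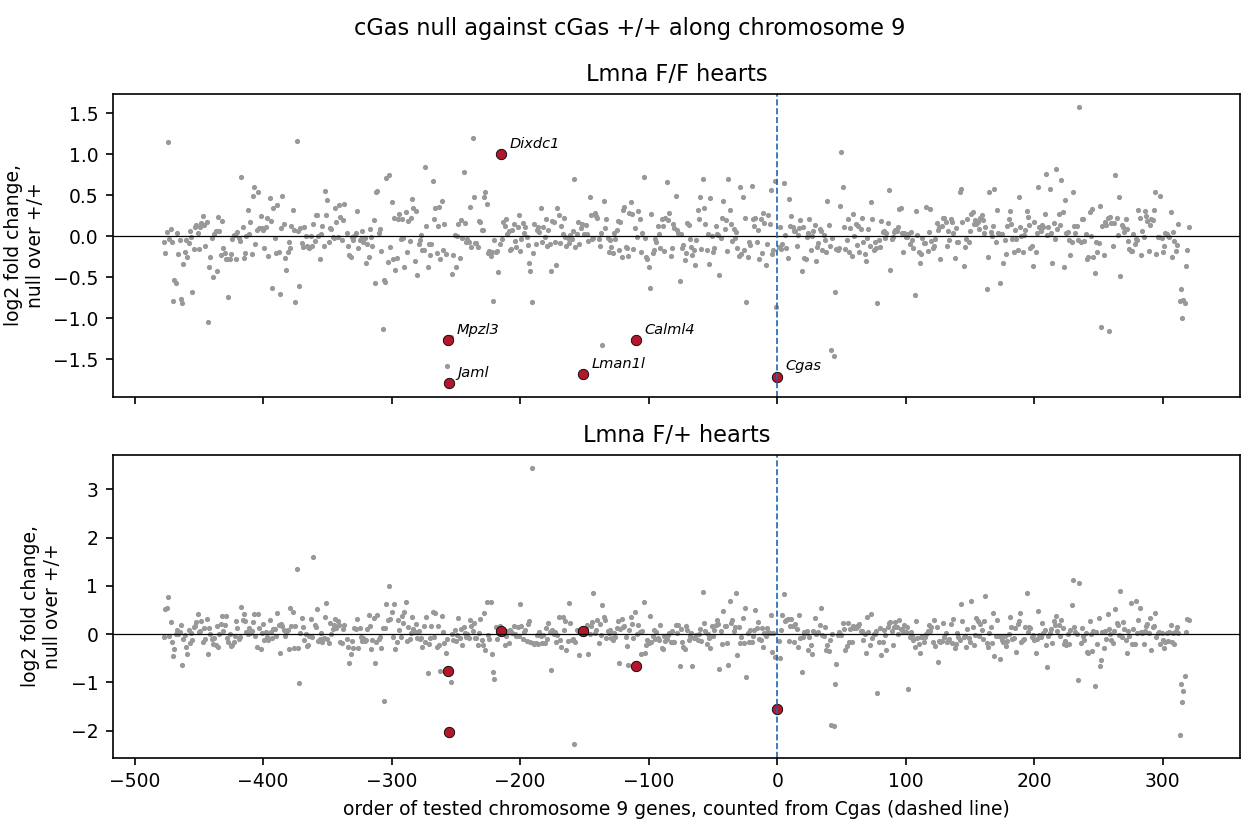
Log2 fold change, cGas null over cGas +/+ (y axis), of tested chromosome 9 genes in F/F hearts (top) and F/+ hearts (bottom), against their order counted from Cgas (x axis). Red points are the chromosome 9 genes among the 20 of smallest p in F/F hearts, apart from Gm32171, which is at 0 in all null F/F libraries and is not drawn. Jaml and Cgas are low in both panels. Dixdc1 (1.01) and Lman1l (-1.68) lie away from 0 in F/F hearts. Neither was called by the edgeR test with the filter, and Lman1l overlapped between the F/F groups.

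On chromosome 5, Gm15459, listed under a placeholder name, was nearly absent from null hearts. It had 0.639, 1.00, 0.247 and 0.103 CPM there, against 0.744 to 51.7 CPM with a median of 36.3 in +/+ hearts (log2 fold change -6.10 ± 1.19, edgeR adjusted p = 0.260). Replicate 1 was the +/+ heart at 0.744 CPM, and the other 5 were at 34.5 CPM or more. In F/+ hearts it was at 0.497 to 1.03 CPM in null libraries, at 0.907 and 0.419 CPM in +/+ replicates 4 and 5, and at 31.4 to 61.0 CPM in the other 4. The values thus fell into a low and a high class that crossed the cGas labels in 3 of 12 +/+ libraries. Other genes of small p had modest differences: Mal had a log2 fold change of -0.56 ± 0.13, Mgst1, a glutathione transferase of membranes, -0.76 ± 0.18, Mylk, the myosin light chain kinase, 0.48 ± 0.12, Plekha5 0.50 ± 0.13 and Nes, which encodes nestin, 0.78 ± 0.21. Zbtb12 had a log2 fold change of 0.82 ± 0.23 and 2900026A02Rik, also under a placeholder name, 0.67 ± 0.19. Mylk, Plekha5, Nes and 2900026A02Rik were higher in all 4 null than in all 6 +/+ hearts.

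The loss of cGas gave no call in F/+ hearts either, and no gene whose effect differed between the Lmna genotypes. With the filter edgeR called 0 genes in F/+ hearts (616 at an unadjusted p under 0.05, 4.16%, with 2.09% higher and 2.07% lower) and 0 for the difference (215, 1.45%). DESeq2 called 1 in F/+ hearts (0.00675%) and 0 for the difference, and limma-voom called 0 in both. Without the filter edgeR called 23 genes for the difference (0.0769%). The 4 null F/+ hearts are all male, so that comparison rests on the sex term of the model, which the F/F hearts help to set. Side by side, the lists had medians of -0.53 in F/F and -0.40 in F/+ hearts for interferon-stimulated genes, -0.56 and -0.38 for macrophage markers, -0.45 and -0.28 for complement, and -0.23 and -0.05 for fetal and stress genes. The F/+ median was the more negative for cytokines and chemokines (-0.81 in F/F and -0.86 in F/+ hearts), MHC class II (-0.24 and -0.68), T and NK cell markers (-0.36 and -0.52) and proliferation (-0.16 and -0.33). For DNA sensing, the GTPases and MHC class I the pairs were -0.29 and -0.28, -0.35 and -0.31, and -0.33 and -0.32. These differences between list medians were not tested.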

How the data were processed

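RNA of perfused hearts was extracted with Trizol LS and DNase-treated, and the QuantSeq 3′ FWD kit, per the labels' protocols, gave tags near transcript ends, so gene length plays little part. The authors deposited raw counts for 55359 genes in 46 libraries, and the submitters' processing notes name STAR 2.7.9 and the build mm39. No label names the counter, the annotation or the strand setting, so antisense partners and near-identical copies cannot be told apart. A deposited table of normalised values was not used. The 10 F/F libraries held 22886964 to 33993289 counts (F/+ libraries 22099181 to 27136038), and 0 of 21 replicate pairs were identical.

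The 20 QuantSeq libraries, all of 1 sequencing pool, were fitted together in R 4.3.3 with edgeR 4.0.16 (TMM, filterByExpr with a minimum count of 10 and total of 15, glmQLFit and glmQLFTest, sex as covariate, Benjamini-Hochberg adjustment, threshold 0.05), which left 14812 genes. DESeq2 1.42.0, limma 3.58.1 (voom), other scalings, filters, designs and leaving out each F/F library were alternatives. Cgas and Lmna were also compared with exact permutation tests. Chromosomes came from a GRCm38 RefSeq table, used for names and gene order only, and 14046 genes matched.

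The members and the 41 gene lists were chosen with earlier results of these data known. The rule for named genes took Cgas and Lmna, the 6 genes of smallest p in each direction and the member of smallest p in each list. It also took the 4 of highest level in the lists on DNA sensing and interferon-stimulated genes. Some of the list members that it took are not printed here. Genes outside that rule with values by library (Ccl7, Cxcl10, Sting1, Isg15, Ifit1, Spp1, Timp1, Col1a1, Gm32171) were chosen after their values were seen. So were Mpzl3, Lman1l and Calml4, and the list members given by their fold change alone.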

Additional observations from a re-analysis of the deposited data

Results flagged for a closer look

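Among 147 groups of 4 or 6 libraries looked at, 7 held a library far from the rest of its group, and chance flags about 1 in 20 groups. In null F/F hearts, Psmb8 was low in replicate 2 at 12.7 CPM against 18.5 to 19.0 CPM in the other null hearts. Gzma, a granzyme, was low in null replicate 3 at 0.329 CPM, and Ifi205 was high in null replicate 1 at 51.1 CPM against 2.51 to 7.09 CPM. In +/+ F/F hearts, Gm15459 was low in replicate 1 at 0.744 CPM. Trp53inp1, a p53 target, was high in that same replicate at 19.0 CPM against 9.31 to 11.4 CPM. Igkc, an immunoglobulin light chain, was high in replicate 5 at 17.2 CPM, and Retn, an adipocyte marker, was high in replicate 3 at 3.01 CPM.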

How the results depend on the processing

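Precision was limited by 4 and 6 libraries: the 95% interval stayed within ±1 on the log2 scale for 11661 of 14812 genes. The count of 0 genes called held under 2 other scalings, removal of mitochondrial genes, a minimum count of 30, limma-voom, no sex term, an atrial score as covariate, a single sex and each left-out library. It did not hold under 3 alternatives: without a filter 93 were called in F/F hearts, 93 in F/+ hearts and 23 for the difference, with DESeq2 5 and 1, and with F/F libraries alone 2 (Cgas, Gm15459). In male hearts alone 1 gene was called among F/+ hearts. Cgas was then called at -1.69 without a filter (edgeR adjusted p = 1.84e-05), -1.72 with DESeq2 (adjusted p = 0.00123) and -1.72 in F/F libraries alone (edgeR adjusted p = 0.0139). The causes were not tested. Leaving out each library, Cgas ranged from -1.87 to -1.59. The number of genes at an unadjusted p under 0.05 was 850, but 526 without +/+ replicate 1 and 487 with no scaling. The median of interferon-stimulated genes ranged from -0.65 to -0.39, of cytokines from -1.07 to -0.70 and of macrophage markers from -0.68 to -0.44 over the left-out libraries. Several small lists moved more, but p53 targets and autophagy genes moved less. The B cell median was -0.71 with a minimum count of 30 and -0.63 in F/F libraries alone. Over left-out libraries the median ranged from -0.66 to 0.00303 for T and NK cells, -0.66 to 0.0744 for neutrophils, -1.72 to -0.0198 for adipocytes, -0.32 to 0.64 for the epicardium, -0.0819 to 0.20 for the integrated stress response, -0.11 to 0.0273 for p53 targets and -0.13 to -0.0554 for autophagy. Reversed signs were seen at genes of no call. In female hearts alone these were Lmna (-0.22), Sox10 (-0.50), Wt1 (-0.10) and Col1a1 (-0.50). Without null replicate 4 they were Lmna (-0.0308), Sox10 (-0.33) and Col1a1 (-0.27), whose highest values over left-out libraries were 0.22, 0.75 and 0.56. No paired analysis was possible because no number in the titles recurs in another group.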

Other observations

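Ldhb-ps, listed as a lactate dehydrogenase pseudogene, was at 2.19 to 3.09 CPM in all 4 null F/F hearts and at 24.4 and 28 CPM in +/+ replicates 2 and 4, with the other 4 +/+ hearts at 2.11 to 2.57 CPM. It was chosen after its values were seen, and its log2 fold change of -1.96 ± 0.63 (edgeR adjusted p = 0.849) rests on those 2 libraries. The +/+ hearts below 1 CPM of Gm15459 (F/F replicate 1, F/+ replicates 4 and 5) were also at 0 for Gm32171, and so was F/F +/+ replicate 6, in which Gm15459 was at 36.3 CPM.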
